A study of Mus musculus with 6 samples.

Results

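Chemokines are small secreted proteins that attract leukocytes along a gradient, and each acts through G protein-coupled receptors on the responding cell. On engagement of the T cell receptor (TCR), T cells release CC chemokines and lymphotactin, which draw macrophages, dendritic cells and further T cells to the site of activation. The 10 ligand genes described here are Ccl3, Ccl4, Ccl5, Ccl9, Xcl1, Ccl1, Ccl17, Ccl22, Cxcl10 and Cxcl16. They were taken by symbol from a gene table of 52550 genes, where each had 1 row, and from a transcript table of 131146 transcripts, where they had 20 rows. The genes were selected on their expression differences between the groups (counts of TCR+DMGV against TCR alone), which were already known, so their levels and differences are given as a description and nothing is read from how many of them differed.

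The cells were wild-type mouse splenic CD3+ T cells, isolated and kept in RPMI medium with fetal serum, and activated for 24 h with antibodies to CD3 and CD28. In 3 samples the cells were activated without a compound (TCR alone), and in 3 samples DMGV (dimethylguanidino valeric acid, a breakdown product of the methylated arginines ADMA and SDMA) was present at 100 ng/ml (TCR+DMGV). The study's text gives the same dose and time but names the added material LNY1, a factor purified from fibroblast medium that it identifies as ADMA and SDMA, and the groups carry the label's name here. The study used mice of both sexes. They were 6 to 8 weeks old, and the strain is not stated for these samples. No unstimulated sample was analysed here, and splenic CD3+ cells are a mixture of CD4 and CD8 T cells.

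Total counts ran from 37758725 to 43718867 per sample, and 14786 genes had enough counts to be tested. TCR alone replicate 3 and TCR+DMGV replicate 1 stood apart from the other 4 samples on the first principal component, which held 32.2% of the variance, so member values are also given without them. These 2 samples also differed in the fitted trend of log2 level with the GC content of genes. For genes of low GC content they lay at -0.38 and -0.305, and the other 4 samples at 0.0882 to 0.265. A link of this trend to the component was not tested. The 11 T cell markers, among them Cd3e, Cd4 and Cd8a, summed to 3367 to 3565 CPM (counts scaled to a common library total by edgeR's TMM method) in TCR alone and 3554 to 3740 in TCR+DMGV. The 14 macrophage and monocyte markers summed to 8.82 to 12.0 CPM and 9.11 to 11 CPM, with Cd14, Spic, C1qc and Marco at 0 counts. The 9 dendritic cell markers summed to 10.0 to 15.5 CPM and 11.4 to 14.3 CPM, with Clec9a, Siglech and Cd209a at 0 counts. The 10 B cell markers summed to 11.2 to 14 and 13 to 13.5 CPM, and 6 of the 7 neutrophil markers had 0 counts. The 8 NK cell markers, some of which activated T cells also express, summed to 84.9 to 100 CPM and 96.6 to 104 CPM. Chosen after their values were seen, 2 of these markers had an unadjusted edgeR p under 0.05 with groups that did not overlap (adjusted p = 0.999 each). They were 1 of the 6 B cell markers tested and 1 of the 7 NK cell markers tested. Over all genes tested, 3.19% had an unadjusted edgeR p under 0.05 and 8.86% had groups that did not overlap. The B cell kinase gene Blk was at 0.431 ± 0.0881 in TCR alone and 0.147 ± 0.0511 in TCR+DMGV, and the NK receptor gene Klre1 at 0.377 ± 0.222 and 0.981 ± 0.183 CPM (SD, n = 3). The part of these other cells in the results below was not tested. In bulk RNA, a change in the number of cells of a type and a change in RNA per cell cannot be told apart.

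The coding sequences show the feature that names each class of chemokine. The lines below give the stretch around the first cysteines of the mature protein, 5' to 3', from GENCODE M21 transcripts (GRCm38), with the cysteine codons in capitals. Ccl3, Ccl4 and Ccl9 have adjacent cysteines (CC), Cxcl10 has 1 residue between them (CXC), and Xcl1 has 1 cysteine here (C).
Ccl3, coding bases 76 to 132: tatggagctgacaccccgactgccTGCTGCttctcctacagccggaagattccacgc
Ccl4, coding bases 76 to 132: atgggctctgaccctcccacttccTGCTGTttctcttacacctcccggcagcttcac
Ccl9, coding bases 145 to 201: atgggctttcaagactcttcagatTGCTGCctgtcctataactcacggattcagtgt
Xcl1, coding bases 70 to 123: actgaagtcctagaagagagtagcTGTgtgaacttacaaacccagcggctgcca
Cxcl10, coding bases 64 to 123: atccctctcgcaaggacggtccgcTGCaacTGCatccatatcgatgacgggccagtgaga

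Sequence likeness could let reads of one ligand be counted for another, so it was measured. Ccl3 and Ccl4 were 69.8% identical over the coding sequence, but their longest identical run was 9 bases. The longest run shared by any 2 of the 10 members was 15 bases, between Ccl4 and Ccl1. For 9 members, no window of 50 bases in the main transcript occurred in another gene. Ccl9 had 2% of such windows in common with other genes, all within bases 1445 to 1603 of 3006 and past the coding end at base 541.

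Ccl3, Ccl4 and Xcl1 made up most of the chemokine RNA of these cells. Together they held 90.4 to 92.0% of the counts of all 38 chemokine ligand genes looked up, and the 10 members held 98.5 to 98.9%. As unscaled CPM (raw counts over the library total), the 10 members summed to 654.1, 657.2 and 746.4 in TCR alone replicates 1, 2 and 3, and to 870.9, 825.4 and 914.9 in TCR+DMGV replicates 1, 2 and 3. The groups did not overlap in this sum, most of which is Ccl3, Ccl4 and Xcl1.

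Levels were compared between genes in deposited gene FPKM (fragments scaled to gene length and library size), where the members spanned a wide range. The median over the 6 samples was 390 for Ccl3 (range 300 to 470), 336 for Xcl1 (262 to 394) and 262 for Ccl4 (205 to 292). The neighbours in this order overlapped between samples, Ccl3 with Xcl1 and Xcl1 with Ccl4, so their order is not fixed by these samples. A large gap followed. Ccl22 had a median of 10.1 FPKM (8.36 to 12.5), Ccl9 5.92 (4.47 to 7.0) and Ccl5 4.74 (3.44 to 5.38), and of these Ccl9 and Ccl5 overlapped. Ccl1 had 1.66 FPKM (1.26 to 2.42), Cxcl10 0.805 (0.647 to 1.18), Ccl17 0.555 (0.412 to 0.880) and Cxcl16 0.178 (0.0939 to 0.325), with only Cxcl10 and Ccl17 overlapping.

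The middle of this order depends on how length is counted. Gene FPKM implied a length of 2674 bases for Ccl1 and 2600 bases for Cxcl10. The transcripts that held 92.1% and 92.4% of their counts are 514 and 1094 bases long. Gene FPKM therefore puts these 2 genes low beside members with 1 annotated transcript. Summing the deposited FPKM of a gene's transcripts moved 3 members, with medians of 8.53 for Ccl5, 7.52 for Ccl1 and 6.18 for Ccl9. The summed value was 4.55 times the gene value for Ccl1, which has 3 annotated transcripts, 2.02 times for Cxcl10 with 4 and 1.80 times for Ccl5 with 2. For Ccl3, Ccl4, Xcl1 and Ccl17, which have 1 annotated transcript, both values were the same.

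**Figure D1:**
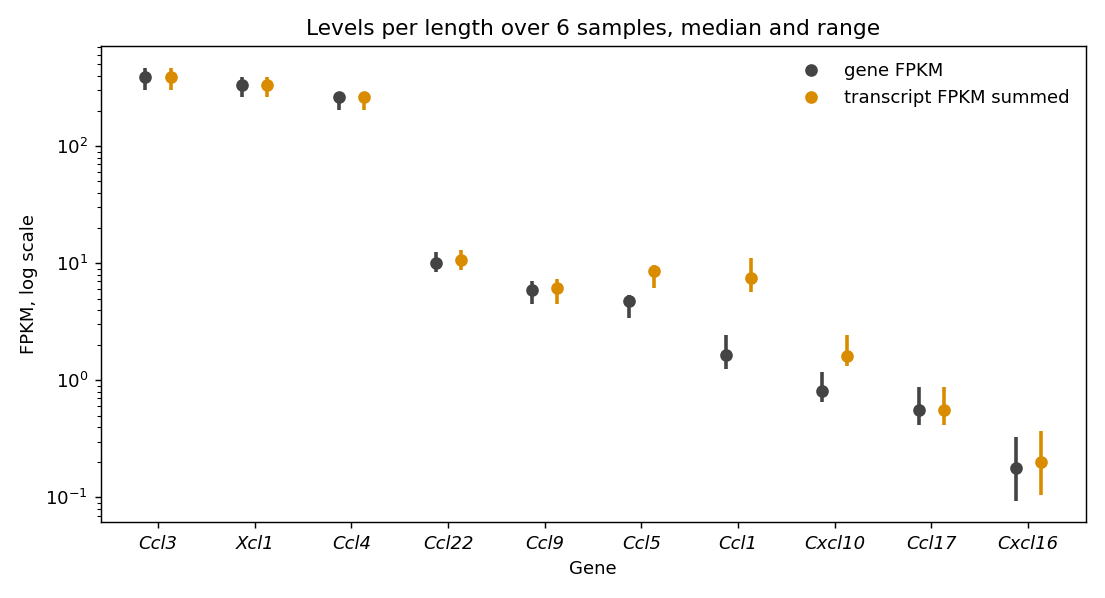
Median and range over 6 samples of each member's level in FPKM on a log axis, from the gene table and from the transcript table summed per gene. Ccl3, Xcl1 and Ccl4 lie at medians of 262 to 390, the other 7 at 10.6 or less, and Ccl1, Ccl5 and Cxcl10 differ most between the tables.

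Ccl3 (ENSMUSG00000000982.5, chr11:83647844-83649355, minus strand, GRCm38) encodes a CC chemokine that attracts monocytes and T cells. Its level was 294, 264 and 296 CPM in TCR alone replicates 1, 2 and 3 and 362, 375 and 414 CPM in TCR+DMGV replicates 1, 2 and 3. All 3 TCR+DMGV samples lay above all 3 TCR alone samples. The means were 285 ± 18.2 and 384 ± 26.9 CPM (SD, n = 3). The log2 fold change was 0.43 with a standard error of 0.08, or 1.35-fold. With edgeR's quasi-likelihood test, adjusted over every gene tested, p was 0.999, so Ccl3 did not pass the threshold of 0.05. Without the 2 samples apart on the first principal component the log2 fold change was 0.50 (standard error 0.10). The lowest adjusted p in any setting tried was 0.106, from DESeq2. Counting error was small against the spread between samples, with a counting coefficient of variation of 0.937% in TCR alone beside an observed 6.40%.

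Ccl4 (ENSMUSG00000018930.3, chr11:83662584-83664683, plus strand), which lies close to Ccl3 and encodes a CC chemokine, was at 151, 174 and 189 CPM in TCR alone and at 212, 198 and 220 CPM in TCR+DMGV. The groups did not overlap, and the nearest samples were 189 and 198 CPM. In deposited gene FPKM these samples, TCR alone replicate 3 and TCR+DMGV replicate 2, were nearly tied, both at 262 after rounding. The means were 171 ± 19.4 and 210 ± 11.2 CPM (SD, n = 3), a log2 fold change of 0.29 with a standard error of 0.10 (adjusted p = 0.999). Its unadjusted edgeR p was 0.0213 with all samples. Over the 19 settings, which include DESeq2 and limma, the unadjusted p was under 0.05 in 15. By edgeR it was 0.0707 without TCR alone replicate 1, 0.0524 without TCR alone replicate 2, 0.064 without TCR+DMGV replicate 1 and 0.0794 without TCR+DMGV replicate 3, and leaving out TCR alone replicate 1 gave the lowest log2 fold change, 0.19.

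Xcl1 (ENSMUSG00000026573.7, chr1:164931644-164935527, minus strand) encodes lymphotactin, which attracts cross-presenting dendritic cells through Xcr1. It was at 152, 175 and 189 CPM in TCR alone and at 211, 204 and 237 CPM in TCR+DMGV, again with no overlap. The means were 172 ± 18.6 and 217 ± 17.3 CPM (SD, n = 3), a log2 fold change of 0.34 with a standard error of 0.10 (adjusted p = 0.999). The unadjusted edgeR p was 0.0135 with all samples and 0.06 without TCR+DMGV replicate 3. A gene on the other strand, Gm20743, overlaps Xcl1 and had 47 to 93 counts per sample against 5788 to 9411 for Xcl1. The use of strand in counting is not stated.

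Ccl9 (ENSMUSG00000019122.8, chr11:83572919-83578636, minus strand), a mouse CC chemokine that acts through Ccr1, was at 18, 18.5 and 15.0 CPM in TCR alone and at 22.0, 24.2 and 24.5 CPM in TCR+DMGV. Every TCR+DMGV sample was above every TCR alone sample. The means were 17.2 ± 1.93 and 23.6 ± 1.39 CPM (SD, n = 3), a log2 fold change of 0.46 with a standard error of 0.12, or 1.37-fold (adjusted p = 0.999).

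Ccl5, Ccl1, Ccl22 and Ccl17 overlapped between the groups. Ccl5 (chr11:83525778-83530518, minus strand) is a CC chemokine that effector and memory T cells make. It was at 5.13, 3.80 and 5.68 CPM in TCR alone and at 4.29, 5.20 and 5.58 CPM in TCR+DMGV. Its log2 fold change was 0.04 with a standard error of 0.21. Ccl1 (chr11:82176657-82305690, minus strand), the ligand of Ccr8, was at 4.03, 3.99 and 4.98 CPM and at 4.72, 6.57 and 3.46 CPM, with 0.18 and a standard error of 0.26. Its highest and lowest samples were both in TCR+DMGV. Ccl22 (chr8:94745590-94751699, plus strand) and Ccl17 (chr8:94810453-94812036, plus strand), both ligands of Ccr4, lie on the same chromosome. Ccl22 was at 21.7, 28.1 and 24.5 CPM in TCR alone and at 32.0, 22.2 and 28.5 CPM in TCR+DMGV, with a log2 fold change of 0.15 and a standard error of 0.16. Ccl17 was counted 14, 11 and 12 times in TCR alone and 23, 18 and 10 times in TCR+DMGV, with a log2 fold change of 0.36 and a standard error of 0.49. At so few counts the counting coefficient of variation was 28.5% in TCR alone and 24.3% in TCR+DMGV. The log2 fold change of Ccl17 was smaller than its standard error, so neither a difference nor its absence can be read from it.

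The CXC ligands also overlapped between the groups. Cxcl10 (chr5:92346638-92348889, minus strand), an interferon-induced ligand of Cxcr3, was at 2.84, 2.01 and 2.20 CPM in TCR alone and at 2.97, 1.72 and 1.94 CPM in TCR+DMGV, with a log2 fold change of -0.09 and a standard error of 0.28. Its highest sample in each group was replicate 1. Cxcl16 (chr11:70453983-70459984, minus strand), a membrane-bound ligand of Cxcr6 that proteases can shed, was counted 24, 43 and 16 times in TCR alone and 25, 49 and 13 times in TCR+DMGV, with a log2 fold change of -0.03 and a standard error of 0.59. Cxcl16 had the widest spread of the members, with an observed coefficient of variation of 48.9% in TCR alone against a counting value of 19.0%. Genes on the other strand overlap both CXC ligands. Art3 had 0 to 12 counts per sample against 74 to 132 for Cxcl10. Zmynd15 had 0 to 15 counts against 13 to 49 for Cxcl16, and 15 against 13 in TCR+DMGV replicate 3. With the use of strand in counting not stated, their part in these counts was not tested.

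**Figure D2:**
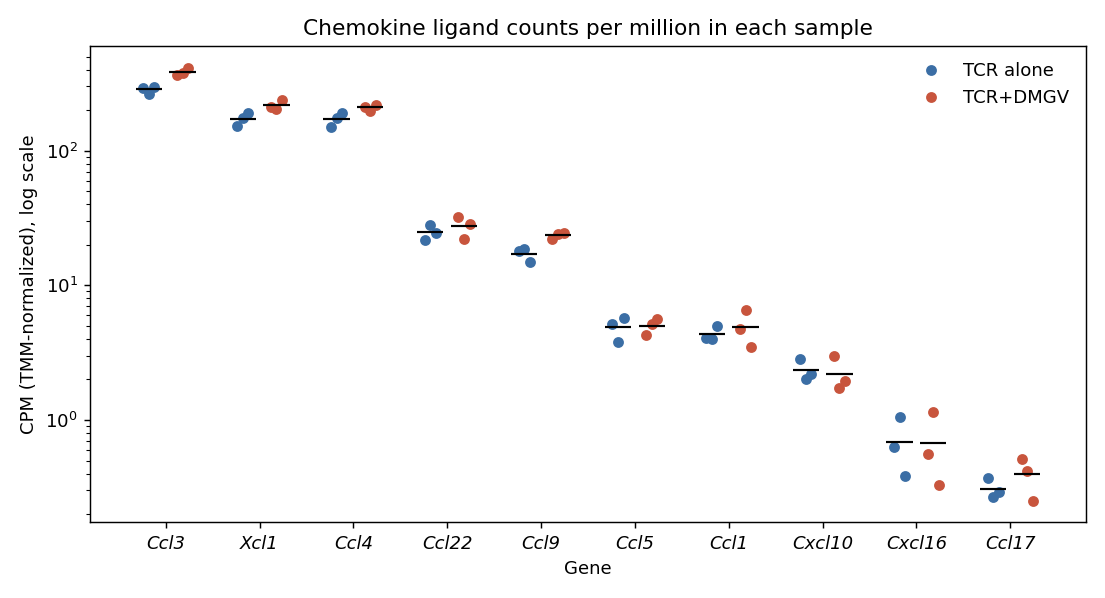
TMM-scaled CPM of each member in each of the 6 samples on a log axis, with TCR alone and TCR+DMGV as separate colours and a line at each group's mean. The points of the groups do not overlap for Ccl3, Ccl4, Xcl1 and Ccl9 and overlap for the other 6 genes.

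None of the 10 members had an adjusted p under 0.05 by edgeR, where 0.0135% of the 14786 genes tested did, or by DESeq2, where 0.0622% of 22526 genes did. At an unadjusted p under 0.05, 4 of 10 passed by edgeR and 4 of 10 by DESeq2, beside 3.19% of all genes by edgeR (1.63% with TCR+DMGV higher) and 2.22% by DESeq2. In these 4, Ccl3, Ccl4, Xcl1 and Ccl9, the groups did not overlap, as in 8.86% of all genes, and TCR+DMGV was higher, as in 4.92%. With 3 samples against 3, the smallest p that an exact permutation test can give is 0.1. The log2 fold change was above 0 in 8 of 10 members and in 50.6% of all genes, with medians of 0.24 and 0.0024. Since this contrast chose the members, these counts describe the choice.

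**Figure D3:**
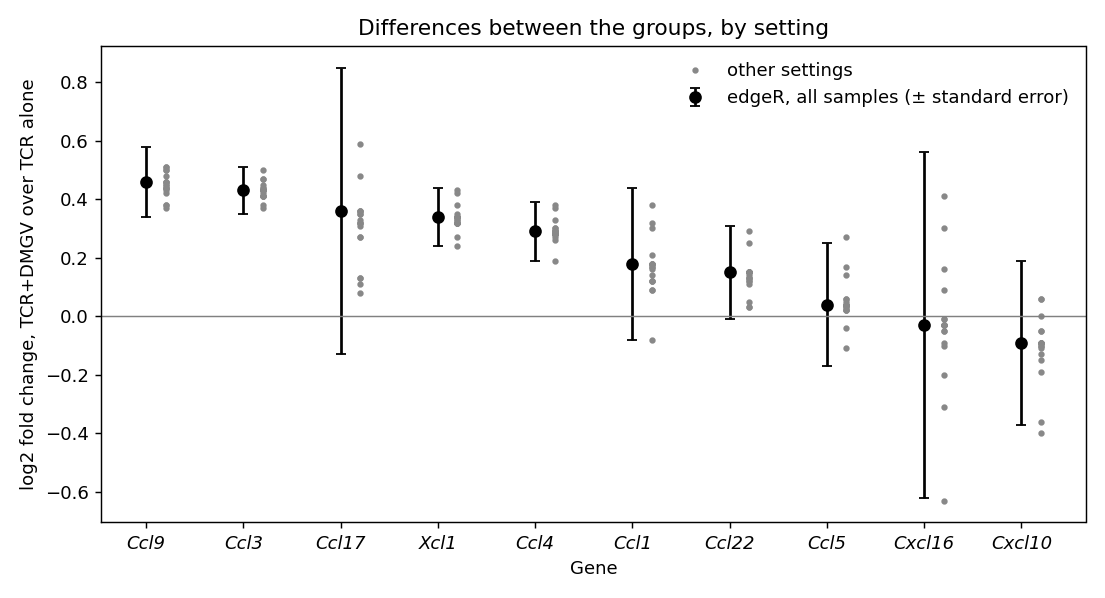
log2 fold change of each member, TCR+DMGV over TCR alone, with the edgeR standard error as bars and the other 18 settings as grey points. Ccl3, Ccl4, Xcl1 and Ccl9 stay above 0 in every setting, which could hardly differ for genes whose groups do not overlap in these samples. Ccl17 and Ccl22 also stay above 0, with wide bars, and Ccl5, Ccl1, Cxcl10 and Cxcl16 fall on both sides of 0.

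Without TCR alone replicate 3 and TCR+DMGV replicate 1, the log2 fold change was 0.37 for Ccl4, 0.43 for Xcl1 and 0.42 for Ccl9. It was 0.27 for Ccl5, 0.32 for Ccl1, 0.08 for Ccl17 and 0.03 for Ccl22. It was -0.40 for Cxcl10 and -0.20 for Cxcl16. The 4 genes with groups apart kept their direction, which could hardly turn in a subset of samples that did not overlap. The other 6 moved more than these did. The genes were sorted by these same values, so this contrast is a description.

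The members did not move alike from sample to sample. Ccl4 and Xcl1 had nearly the same pattern, with a root mean square difference of 0.040 between their centred log2 CPM over the 6 samples. The ratio of Xcl1 to Ccl4 in FPKM ran only from 1.26 to 1.36. The ratio of Ccl3 to Ccl4 ran from 1.31 to 1.68 and overlapped between the groups, and Ccl3 lay at 0.124 from Xcl1, 0.142 from Ccl4 and 0.143 from Ccl9. Of the 11247 genes whose mean log2 CPM exceeded 1, the patterns nearest to that of Ccl3 were those of Gm43137 (0.036), Gm10175 (0.044), Prrt1 (0.051), 1810009A15Rik (0.056) and Fscn1 (0.056). Xcl1 ranked 72, Ccl4 163, Ccl9 176 and Ccl5 3317 in that order. All these likenesses hold the contrast that chose the members.

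**Figure D4:**
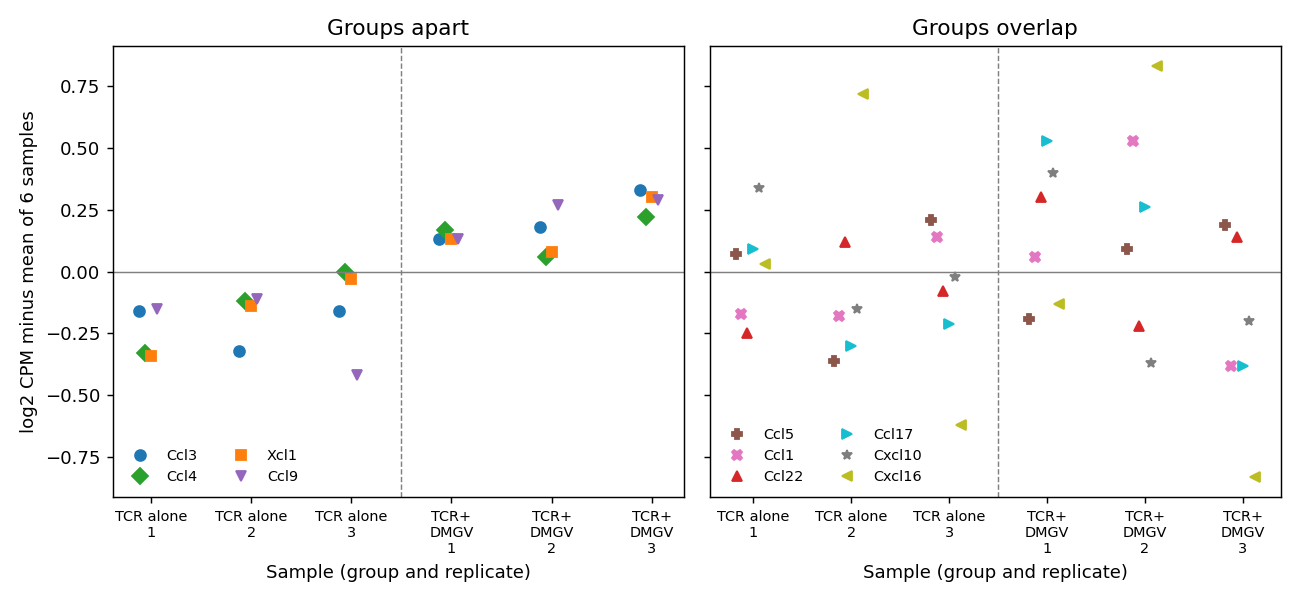
log2 CPM of each member minus its mean over the 6 samples, by sample, with the dashed line between the TCR alone and TCR+DMGV samples. The members with groups apart lie at or below 0 in the TCR alone samples and above 0 in the TCR+DMGV samples. The members with overlapping groups scatter across 0 in both groups.

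The main transcripts carried nearly all counts. The main transcript held 99.7% of Ccl9 counts, 99.9% of Ccl22, 97.5% of Ccl5 and 99.4% of Cxcl16. Cxcl10's ENSMUST00000038816.12 held 92.4% (85.2 to 97.0% by sample) and Ccl1's ENSMUST00000108189.8 held 92.1% (83.0 to 98.8%). The latter was counted 127, 161 and 181 times in TCR alone and 202, 269 and 121 times in TCR+DMGV, with a log2 fold change of 0.25 and a standard error of 0.35. Of the 20 member transcripts, 11 were tested and 0 had an adjusted p under 0.05 by edgeR, as did 0% of the 38401 transcripts tested. At an unadjusted p under 0.05, 4 passed by edgeR, beside 3.22% of all transcripts, and 2 of the 18 that DESeq2 fitted, beside 4.07% of 70124 transcripts. At the adjusted threshold 0 of the 18 passed by DESeq2, beside 0.57%.

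The promoters of the members with groups apart, except Ccl4, are shown for the motifs that T cell activation uses, as the letters of NFAT, AP-1 and NF-kappaB sites. RefSeq (GRCm38.p6) held an entry for 7 of the 10 members and none for Ccl4, Ccl5 and Cxcl16. Each ran from 250 bases before to 50 after the start, and Ccl3, Xcl1 and Ccl9 are given here 5' to 3' along the gene. Capitals mark matches on either strand to TATAAA, the core promoter box. They also mark GGAAA, the core of NFAT sites, TGANTCA for AP-1 and GGGNNNNNCC for sites like those of NF-kappaB.
Ccl3, chr11:83649329-83649628, minus strand: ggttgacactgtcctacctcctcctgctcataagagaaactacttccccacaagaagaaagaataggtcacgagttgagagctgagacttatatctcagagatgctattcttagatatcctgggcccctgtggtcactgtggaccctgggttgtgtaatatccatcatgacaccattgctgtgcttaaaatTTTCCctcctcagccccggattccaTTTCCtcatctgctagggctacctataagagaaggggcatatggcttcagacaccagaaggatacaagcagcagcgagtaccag
Xcl1, chr1:164935473-164935772, minus strand: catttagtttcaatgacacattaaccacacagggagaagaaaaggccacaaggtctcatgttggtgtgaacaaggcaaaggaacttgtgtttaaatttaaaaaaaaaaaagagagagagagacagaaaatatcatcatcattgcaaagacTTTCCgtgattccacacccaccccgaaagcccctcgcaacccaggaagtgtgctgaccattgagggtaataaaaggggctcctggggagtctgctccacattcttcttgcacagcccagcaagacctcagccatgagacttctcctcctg
Ccl9, chr11:83578587-83578886, minus strand: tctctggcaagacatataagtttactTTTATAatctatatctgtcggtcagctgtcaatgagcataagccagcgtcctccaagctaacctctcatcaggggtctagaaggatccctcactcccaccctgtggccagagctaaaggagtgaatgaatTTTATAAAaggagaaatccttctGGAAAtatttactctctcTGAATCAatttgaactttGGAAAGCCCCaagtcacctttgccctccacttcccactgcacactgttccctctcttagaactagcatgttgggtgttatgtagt

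Ccl3 had GGAAA 2 times, on the other strand, at positions -59 and -34 from the start. Xcl1 had it 1 time, at position -100. Ccl9 had GGAAA 2 times, TATAAA 3 times, TGANTCA 1 time and GGGNNNNNCC 1 time, the last overlapping a GGAAA. Its TATAAA matches were at -224, -94 and -92, and those at -94 and -92 are overlapping matches on opposite strands. Of 32851 promoters of the same length, GGAAA occurred in 61.3%, GGGNNNNNCC in 50.8%, TATAAA in 13.6% and TGANTCA in 7.81%. Among the members with overlapping groups, Cxcl10 had GGAAA 3 times, TGANTCA 1 time and GGGNNNNNCC 4 times, some of them overlapping. In Ccl1, GGAAA occurred 3 times and GGGNNNNNCC 2 times. Ccl17 had GGAAA 1 time, and Ccl22 had GGGNNNNNCC 2 times. These are matches of letters and no sites of binding.

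Of the 8 receptors that bind members, 6 were tested, 0 passed at an adjusted p under 0.05 by edgeR and 0 at an unadjusted p under 0.05. Ccr4, which binds Ccl17 and Ccl22, was at 137 ± 17.3 and 132 ± 20.9 CPM in TCR alone and TCR+DMGV (SD, n = 3). Ccr8 was at 53.5 ± 0.768 and 55.2 ± 2.70 CPM, Cxcr3 at 17.9 ± 0.625 and 18.9 ± 0.751 CPM and Cxcr6 at 14.8 ± 3.89 and 15.9 ± 5.72 CPM. Ccr1, which binds Ccl3 and Ccl9, had 0 counts in all 3 TCR alone samples and 0.112, 0.697 and 0.404 CPM in TCR+DMGV, too few to be tested, and Ccr3 had 4 counts at most. Xcr1, the receptor of Xcl1, was at 0.550 ± 0.345 and 0.715 ± 0.291 CPM.

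Of 28 other chemokine ligands, 6 had enough counts to be tested, 13 had 0 counts in every sample, and 0 had an adjusted p under 0.05 by edgeR. Ccl25, a thymic and gut ligand of Ccr9, was at 2.67 ± 0.600 and 4.22 ± 0.460 CPM with a log2 fold change of 0.66 (standard error 0.23). Cxcl9, which like Cxcl10 is an interferon-induced ligand of Cxcr3, was at 1.56 ± 0.363 and 2.54 ± 0.422 CPM with 0.70 (standard error 0.27). Both, 2 of the 6 tested, had groups that did not overlap and an unadjusted edgeR p under 0.05, while Cxcl10 did not. Over all genes tested, the groups did not overlap in 8.86% and the unadjusted edgeR p was under 0.05 in 3.19%. Of 23 chemokine receptors, 15 were tested, 0 passed at an adjusted p under 0.05 by edgeR and 1 had an unadjusted p under 0.05, Cxcr4, at 2.80 ± 0.265 and 4.6 ± 0.424 CPM. The proteases that act on chemokines, Adam10, Adam17 and Dpp4, had log2 fold changes below 0 with overlapping groups.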

How the data were processed

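Gene and transcript expression of 6 mouse T cell samples was measured by RNA sequencing of poly(A) RNA. The study describes the samples of each group as independent biological samples. The authors used SOAPnuke 1.5.2 to filter reads, HISAT2 2.0.4 to map them and StringTie 1.2.3 to estimate expression. The deposited counts are unnormalized integers, in 1 table of genes and 1 of transcripts. FPKM values deposited by the authors are scaled to gene or transcript length and library size. The counting step and its strand setting are not given in the sources used here. The submitters' processing notes name mm9, but 99.7% of the gene identifiers are those of GENCODE M21, from which symbols and GRCm38 coordinates were taken.

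Counts were compared with edgeR 4.0.16 in R 4.3.3 (TMM, default low-count filter, two-sided quasi-likelihood test, Benjamini-Hochberg adjustment over all genes tested, threshold 0.05). Means are of TMM-scaled CPM. Alternatives used DESeq2 1.42.0 and limma 3.58.1 on log2(FPKM + 1) and log2(FPKM + 0.1). The gene fit was tested on simulated data. No pair of samples agreed within sampling noise, with a median chi-square of 3.89 or more. Python 3.11.15, pandas 2.3.3 and matplotlib 3.10.9 were used for tables and figures. All 10 members are named, with receptors that bind them (1 of which is not reported here), genes of the other ligand, receptor and protease lists with an unadjusted p under 0.05 (at most 3 a list), and the 5 genes of pattern most like Ccl3. Members and lists were chosen with earlier results of these data known. All 37 mitochondrial genes had 0 counts and were not analysed here.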

Additional observations from a re-analysis of the deposited data

How the results depend on the processing

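No member passed the adjusted threshold in any of 19 settings. None of 180 recomputed member values moved by more than the SD between replicate samples. That SD is of single samples and the settings reuse the same counts, so the values could hardly move further. This adds no support. The median log2 fold change of the members did move by more than its SD between replicates, 0.042, in some settings. Ccl3, Ccl4, Ccl9 and Xcl1 had a log2 fold change above 0 in 72 of 72 recomputed values. Their groups did not overlap, so leaving samples out or rescaling could hardly turn the sign, and this adds no support. Ccl4 had an unadjusted p under 0.05 in 15 of 19 settings by edgeR, DESeq2 or limma. Over all genes, 2 passed the threshold with all samples, 14 by DESeq2, 1 with library size alone, 1 among all genes with a count, and 0 by limma on log2(FPKM + 1), log2(FPKM + 0.1) or log2(FPKM + 1) over all genes. Leaving out 1 sample gave 0 to 5 genes (5 without TCR+DMGV replicate 1, 2 without TCR+DMGV replicate 3 and 0 without any 1 of the other 4), and leaving out the 2 samples apart on the first principal component gave 12. Of transcripts, 0 passed by edgeR, 400 by DESeq2 and 0 to 1 with a sample left out. The median log2 fold change of the members was 0.24, 0.12 by limma on log2(FPKM + 1) with and without the filter, 0.30 without the 2 samples and 0.15 to 0.31 with a sample left out, the lowest without TCR alone replicate 1 and the highest without TCR alone replicate 3. The order of levels changed at 3 positions with summed transcript FPKM. Same-numbered samples did not clearly deviate together (correlations of -0.154, 0.121 and -0.148). The correlation was 0.31 between TCR alone replicate 3 and TCR+DMGV replicate 1, the 2 samples apart on the first principal component. So few correlations cannot exclude a weak pairing, and whether the numbers pair the samples is not known. With the replicate number as a block, 0 genes passed and the median of the members was 0.22. The removal of the GC trend, the 2 samples left out and the summed transcript FPKM were chosen after seeing the data. The causes of these shifts were not tested. With 3 samples a group, counting error was largest for Ccl17, at 10 to 23 counts. Cxcl16, at 13 to 49 counts, spread between samples by more than its counting error. Its coefficient of variation was 48.9% against 19.0% in TCR alone and 61.7% against 18.6% in TCR+DMGV.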
